A study of Mus musculus with 2 samples.

Results

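The 10 genes described here are chemokine ligands, the secreted or membrane-held proteins that direct the movement of leukocytes: Cxcl9, Cxcl10, Cxcl12, Cxcl16, Cx3cl1, Ccl2, Ccl3, Ccl4, Ccl5 and Ccl12. They were chosen by name from the 32286 features of the gene table, and all 10 had counts in both libraries. Single cells were profiled in droplets (10x Genomics, v3.1 of the 3' kit) from the optic cup of Abca4KO mice, which lack a photoreceptor transporter and model Stargardt disease. In the library labelled sponge the eyes had received AAV2.8-Sponge.mir181, a viral vector carrying decoy sites for miR-181a and miR-181b, and in the library labelled GFP they had received the control vector AAV2.8-GFP. Both groups share the Abca4 loss, and per the series the vectors were given under the retina at 2 months of age, and tissue was taken 4 months after that, but the labels of both samples state 4 months as the age. Each group is 1 library, the sources used here give neither the number of mice behind it nor the promoter of either vector, and cells are not assigned to mice.

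A single library per group allows no replicate error and no test. Levels are UMI counts of a gene scaled to the total of its cell class (CPM, where a UMI, or unique molecular identifier, stands for 1 captured RNA molecule), and ratios are log2 of the level in the library labelled sponge over that in the library labelled GFP. The 95% intervals cover counting error only, and they are too narrow where a few cells hold most of the UMIs. The library labelled sponge held 132067896 UMIs in 23267 barcodes, of which 23200 were kept at a median of 2980.5 UMIs. The library labelled GFP held 123040365 UMIs in 39461 barcodes, of which 39285 were kept at a median of 2415 UMIs. Beside values they are called sponge-labelled and GFP-labelled. They shared 287 cell barcodes, 1.24% (sponge-labelled) and 0.731% (GFP-labelled) of their kept cells. The eGFP sequence had 5484 UMIs in the library labelled sponge and 12 in the library labelled GFP, the reverse of what the vector names give. The sources used here do not say whether the sponge vector also encodes eGFP, and every direction given here depends on the labels. Cells were placed in 13 classes by marker genes (retinal pigment epithelium-like, or RPE, and so on, with "-like" dropped hereafter), while 38.2% (sponge-labelled) and 39.3% (GFP-labelled) of the cells stayed unnamed, beside unnamed immune cells. RPE had 9 of its 10 markers in the library labelled sponge, where Best1 was at 0, and 10 of 10 in the library labelled GFP. Summed over its own markers, each of the 13 classes had a higher level in the library labelled sponge, by 1.20 to 2.53-fold. Rod markers summed to less there in 12 of the 12 other classes.

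Chemokines bind G protein-coupled receptors on leukocytes, and many are also held on cell surfaces by heparan sulfate so that a gradient forms. In the retina, resident microglia and blood-derived macrophages, the vessel wall, Müller glia and the RPE are known sources. Cxcl9 and Cxcl10 are induced by interferon gamma and attract T cells through Cxcr3, Cxcl12 and Cx3cl1 are made at rest, and the CC chemokines recruit monocytes, macrophages and T cells.

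The microRNAs that the sponge is meant to hold share 1 seed, the bases 2 to 8 that pair with a target. Their mature sequences from RefSeq (GRCm38.p6) are shown with the seed in capitals, because the seed defines which ligand transcripts could be direct targets. miR-181a is made from chr1:137966468-137966490 and chr2:38852741-38852763, and miR-181b from chr1:137966650-137966673 and chr2:38853845-38853868, all on the plus strand.
mmu-miR-181a-5p: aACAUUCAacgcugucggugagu
mmu-miR-181b-5p: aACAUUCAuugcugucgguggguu
The matching letters in a target, TGAATGT, were found in the annotated 3' UTR (GENCODE M21) of 0 of the 10 ligands, against 3633 of 21022 genes with an annotated 3' UTR (17.3%). This says only that these letters are not in those annotated stretches.

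The promoters of Cxcl9 and Cxcl10 are shown because RPE had 15.7-fold more Cxcl9 and 16.2-fold more Cxcl10 in the library labelled sponge. The genes lie near each other on chromosome 5, both on the minus strand. Each sequence runs 5' to 3' from 250 bases before to 50 bases after the annotated start (RefSeq, GRCm38.p6), at chr5:92328030-92328329 for Cxcl9 and chr5:92348840-92349139 for Cxcl10, both on the minus strand. Capitals mark motif matches.
Cxcl9 promoter: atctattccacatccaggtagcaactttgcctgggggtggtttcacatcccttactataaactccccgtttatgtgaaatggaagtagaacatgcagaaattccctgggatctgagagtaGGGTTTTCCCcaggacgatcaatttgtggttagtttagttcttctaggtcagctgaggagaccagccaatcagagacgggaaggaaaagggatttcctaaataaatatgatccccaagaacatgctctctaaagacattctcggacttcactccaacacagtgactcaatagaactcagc
Cxcl10 promoter: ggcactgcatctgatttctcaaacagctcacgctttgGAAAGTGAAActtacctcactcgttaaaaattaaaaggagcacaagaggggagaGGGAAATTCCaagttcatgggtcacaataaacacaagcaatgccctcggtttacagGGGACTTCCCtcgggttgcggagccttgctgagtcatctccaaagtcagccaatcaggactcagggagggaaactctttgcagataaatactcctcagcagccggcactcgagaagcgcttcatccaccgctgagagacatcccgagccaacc
Both strands were searched for an interferon-stimulated response element (GAAA, any 2 bases, GAAA), a gamma-activated site (TTCNNNGAA) and a kB site (GGGA, any 4 bases, CC), and matches of different motifs did not overlap. The Cxcl10 window holds 1 response element, 213 bases before the start, and 2 kB matches, the first starting 159 bases before it, the second matching on both strands. The Cxcl9 window holds a kB match on the opposite strand, starting 130 bases before the start. Over all 32851 promoters of this length, 3.44% hold the response element, 8.30% the gamma-activated site and 20.7% the kB site. Among the 6 ligands with a promoter entry, 1 holds the response element, 0 the gamma-activated site and 2 a kB site.

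The class with the highest level was the same in both libraries for 9 of 10 ligands: macrophages for Cxcl9, Cxcl16, Ccl2 and Ccl12, microglia for Ccl3 and Ccl4, T and NK cells for Ccl5, and endothelial cells for Cxcl12 and Cx3cl1. Cxcl10 was the exception, highest in RPE of the library labelled sponge and in fibroblasts of the library labelled GFP. For 3 ligands the first class and the next did not differ beyond their counting intervals, namely Cxcl9 in both libraries, Cxcl10 in the library labelled sponge and Ccl12 in the library labelled GFP. Rods, which are not a known source, served as the gauge of free RNA, and a class was called above rods where its whole interval lay above that of rods in the same library. By that rule Ccl12 stood above rods in 2 classes in both libraries and Cxcl10 in 7 (sponge-labelled) and 8 (GFP-labelled).

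**Figure D1:**
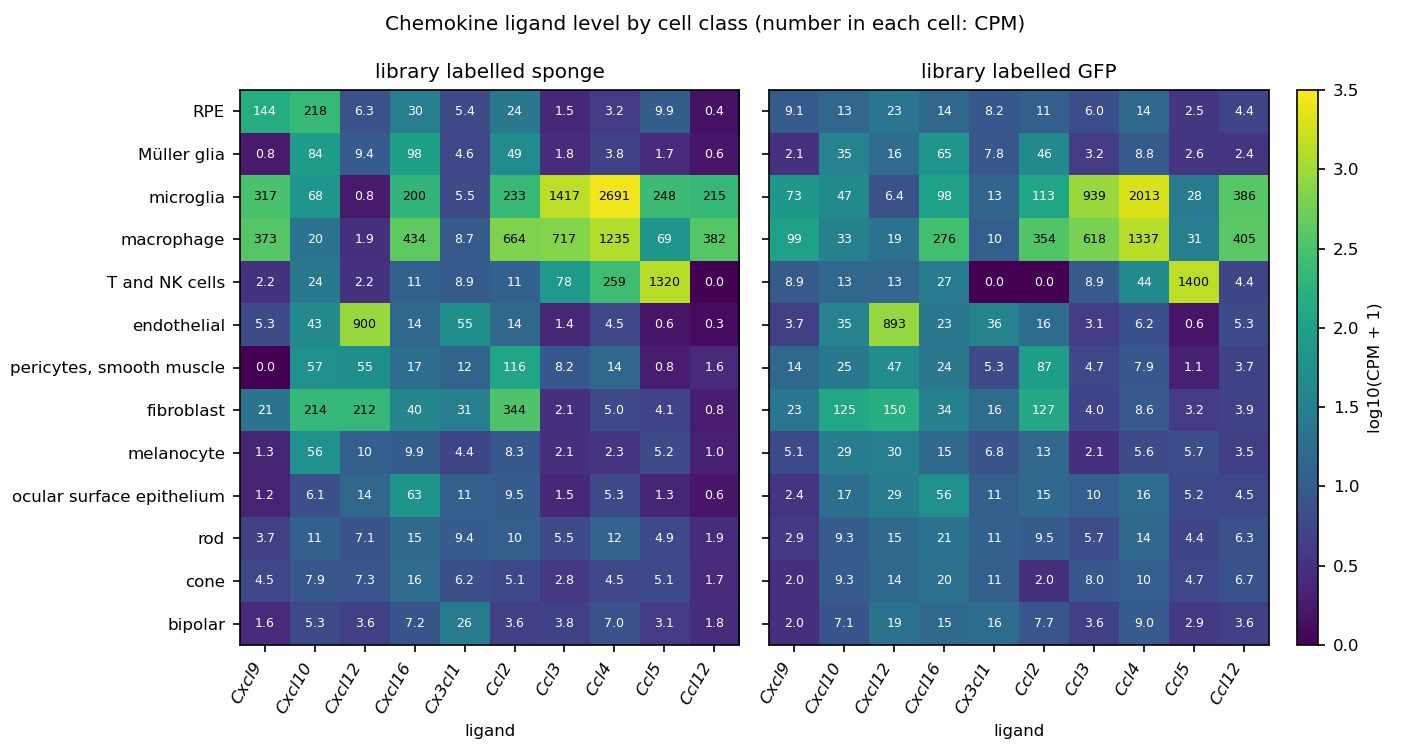
Level of the 10 ligands (columns) in 13 cell classes (rows), with the library labelled sponge on the left and the library labelled GFP on the right. Colour is log10(CPM + 1) and each printed number is the CPM. The panels share their bright cells (Ccl3 and Ccl4 in microglia and macrophages, Ccl5 in T and NK cells, Cxcl12 in endothelial cells), and RPE is bright for Cxcl9 and Cxcl10 on the left alone.

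The share of each ligand's UMIs held by a class was also read. RPE held 43.7% of the Cxcl9 UMIs in the library labelled sponge and 8.70% in the library labelled GFP, and 24.3% (sponge-labelled) and 2.92% (GFP-labelled) of the Cxcl10 UMIs. Microglia held 49.0% (sponge-labelled) and 18.6% (GFP-labelled) of the Ccl3 UMIs, and 46.9% (sponge-labelled) and 19.7% (GFP-labelled) of those of Ccl4. Endothelial cells held 54.2% (sponge-labelled) and 41.6% (GFP-labelled) of the Cxcl12 UMIs. Unnamed cells held much of the rest: for Ccl2, 32.7% (sponge-labelled) and 33.1% (GFP-labelled) lay in unnamed cells outside the immune clusters, among them a cluster led by Grem1, Ptx3 and Crhbp with 20.9% (sponge-labelled) and 8.84% (GFP-labelled) of all Ccl2 UMIs. Such shares also follow how many cells of a class were kept, and microglia were 0.793% of cells in the library labelled sponge and 0.382% in the library labelled GFP.

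**Figure D2:**
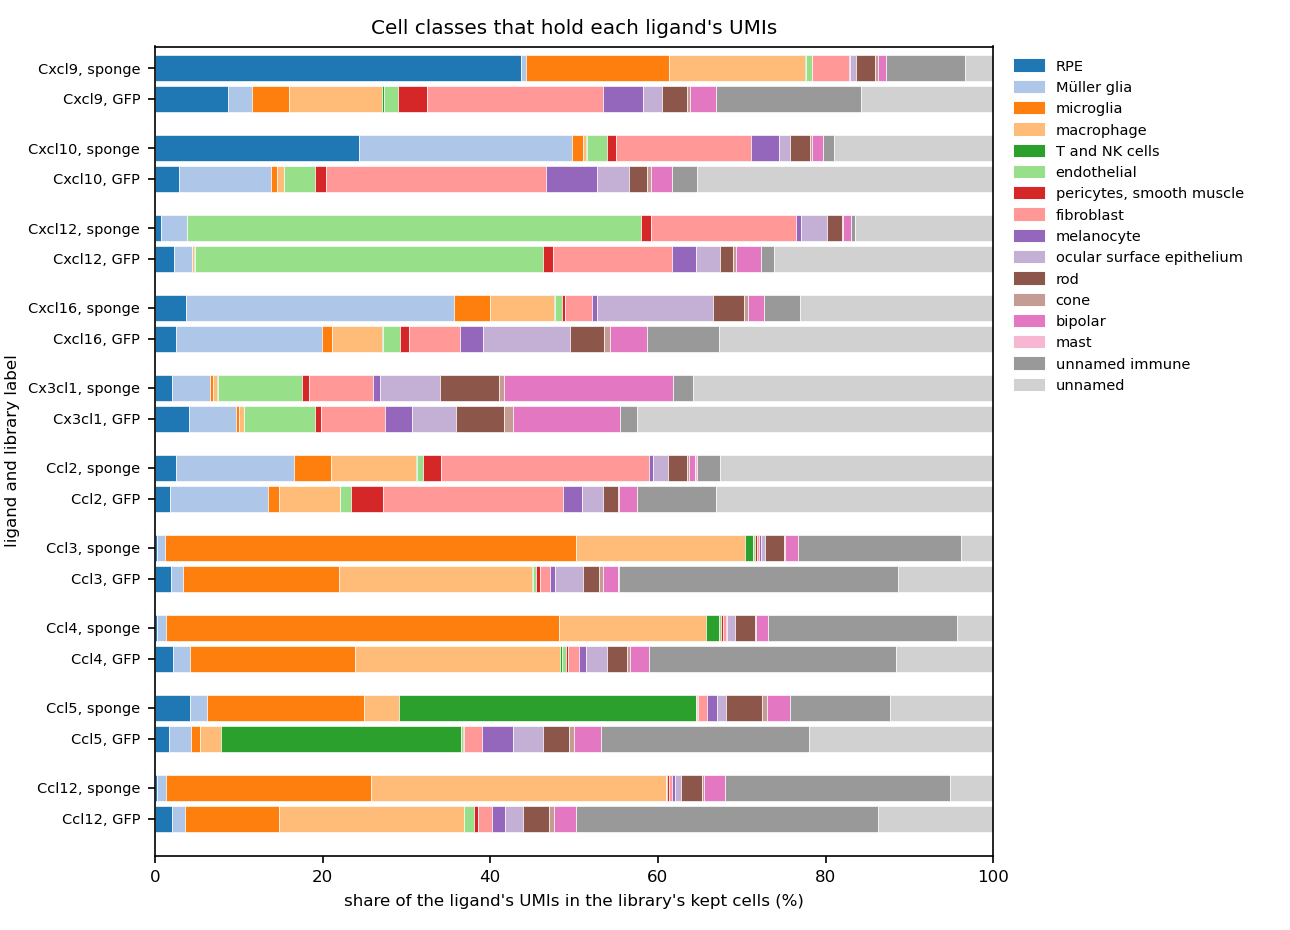
Share of each ligand's UMIs (horizontal axis, percent of all its UMIs in the kept cells) held by each cell class (colours), with the library labelled sponge above the library labelled GFP for each ligand. The RPE block of Cxcl9 spans 43.7% in the upper bar and 8.70% in the lower, and grey blocks are unnamed cells.

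Cxcl9 (ENSMUSG00000029417, chromosome 5, 92321347 to 92328079, minus strand, 4 exons, GRCm38) encodes a Cxcr3 ligand made almost only after interferon gamma. RPE had 144 CPM (136 to 154) in the library labelled sponge, against 9.12 CPM (7.08 to 11.6) in the library labelled GFP, a log2 ratio of 3.98 (3.63 to 4.36). Rods had 3.66 CPM (sponge-labelled) and 2.90 CPM (GFP-labelled), so RPE stood above rods in both libraries. Few cells carried this signal. Of 498 RPE cells in the library labelled sponge 19 had a Cxcl9 UMI (3.82%), against 8 of 1029 (0.777%) in the library labelled GFP. In rods 0.842% (sponge-labelled) and 0.495% (GFP-labelled) had one. A single RPE cell held 539 of the 1035 UMIs, or 52.1%, in the library labelled sponge, and a single cell held 35 of 68, or 51.5%, in the library labelled GFP. With the top cell of each library left out, RPE had 69.7 CPM in the library labelled sponge and 4.43 CPM in the library labelled GFP, and the log2 ratio was 3.95.

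Cxcl10 (ENSMUSG00000034855, chromosome 5, 92346638 to 92348889, minus strand, 4 exons), also a Cxcr3 ligand, answers to interferons and to NF-kB. It overlaps Art3 on the opposite strand, and the sources used here do not say whether counting used strand. RPE had 218 CPM (207 to 229) in the library labelled sponge, against 13.4 CPM (10.9 to 16.3) in the library labelled GFP, a log2 ratio of 4.02 (3.73 to 4.33). It was seen in 8.63% of RPE cells (43, sponge-labelled) and 3.21% (33, GFP-labelled), and in 2.38% (sponge-labelled) and 1.57% (GFP-labelled) of rods. Its level in RPE of the library labelled GFP did not stand above that of rods, 9.34 CPM. The cell with most Cxcl10 held 490 UMIs, or 31.4%, in the library labelled sponge and 35 UMIs, or 35%, in the library labelled GFP. Without these cells the levels were 151 CPM in the library labelled sponge and 8.72 CPM in the library labelled GFP, and the log2 ratio was 4.10.

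The top Cxcl9 and Cxcl10 cells carried RPE transcripts, but at lower levels than most RPE cells. The cell with 539 Cxcl9 UMIs had 46784 UMIs in all, 170 of them from the RPE marker list and 2 from the myeloid list. The next had 219 Cxcl9 and 169 Cxcl10 UMIs beside 358 RPE marker UMIs and 0 myeloid marker UMIs. The cell with 490 Cxcl10 UMIs had 1072 RPE marker UMIs, 6 myeloid marker UMIs and 66 Cxcl9 UMIs. Their RPE markers summed to 3634, 7199 and 17016 CPM, levels that 2.21%, 8.03% and 21.1% of RPE cells of the library labelled sponge did not exceed. The median RPE cell there had 45202 CPM, the tenth percentile was 8953 CPM, and the median Müller glial cell had 2013 CPM. The 19 cells with Cxcl9 had a median of 22041 CPM. The 3 cells lay at the depth percentiles 92.0, 93.6 and 97.0 of RPE in the library labelled sponge, where the median was 3644 UMIs, against 6193 UMIs in the library labelled GFP. Of the 19 RPE cells with Cxcl9 in the library labelled sponge 14 also had Cxcl10 (73.7%), against 6.05% of the other RPE cells, at median depths of 32343 and 3441 UMIs. In the library labelled GFP 4 of 8 had both.

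Markers of other cell types in RPE were measured beside these values. The 10 myeloid markers summed to 113 CPM in RPE of the library labelled sponge and 137 CPM in that of the library labelled GFP, and the T and NK markers to 2.23 CPM (sponge-labelled) and 6.03 CPM (GFP-labelled), with Trac, Cd8a and Gzmb at 0 in the library labelled sponge and Cd4 and Gzmb at 0 in the library labelled GFP. RPE of the library labelled sponge had 507 Cxcl9 UMIs per 100 C1q UMIs, while its microglia had 2.69 and its macrophages 5.10. Of the 19 RPE cells with Cxcl9 in the library labelled sponge, 7 had a C1q UMI, against 67 of the other 479, at median depths of 32343 and 3441 UMIs. In RPE cells with no C1q UMI, Cxcl9 stood at 56.0 CPM in the library labelled sponge and 6.92 CPM in the library labelled GFP, and Cxcl10 at 164 CPM (sponge-labelled) and 12.8 CPM (GFP-labelled). That set leaves out the cell with 539 Cxcl9 UMIs, which had 1 C1q UMI among 46784 UMIs. It also leaves out the cell with 490 Cxcl10 UMIs, which had 2 among 62999. The part of depth in these shares was not tested. The Müller list summed to 10655 CPM in RPE of the library labelled sponge and 7331 CPM in that of the library labelled GFP, and its part in the result was not tested.

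Within RPE of the library labelled sponge, the 146 cells with eGFP had 286 CPM of Cxcl9 (268 to 304) and the 352 cells without it 19.0 CPM (14.9 to 23.9). For Cxcl10 the levels were 284 CPM with eGFP and 159 CPM without, and for Cxcl16 they were 50.1 CPM with eGFP and 12.9 CPM without. Ccl2 stood at 23.7 CPM with eGFP and 24.0 CPM without. Few cells carried these levels: 880 of the 963 Cxcl9 UMIs with eGFP lay in 3 cells, and 66 of the 72 without eGFP in 1 cell. Of the Cxcl10 UMIs, 1 cell held 355 of 958 with eGFP and 1 cell held 490 of 604 without. Leaving out the cell with most UMIs in each set, Cxcl9 had 128 CPM (116 to 140) with eGFP and 1.61 CPM (0.590 to 3.501) without, and Cxcl10 had 182 CPM (168 to 197) with eGFP and 30.6 CPM (25.2 to 36.7) without. The cells with eGFP were deeper, at a median of 20887.5 UMIs against 2553.5 UMIs. With each cell thinned to 1000 UMIs, 2.76% of the cells with eGFP and 0.862% of those without had Cxcl9, and 6.21% of the cells with eGFP and 2.59% of those without had Cxcl10. These are shares of 145 cells with eGFP and 348 without, so they rest on few positive cells. They come from 1 random draw and have no interval. The part of depth in these differences was not tested beyond that thinning, and the cells come from 1 library.

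**Figure D3:**
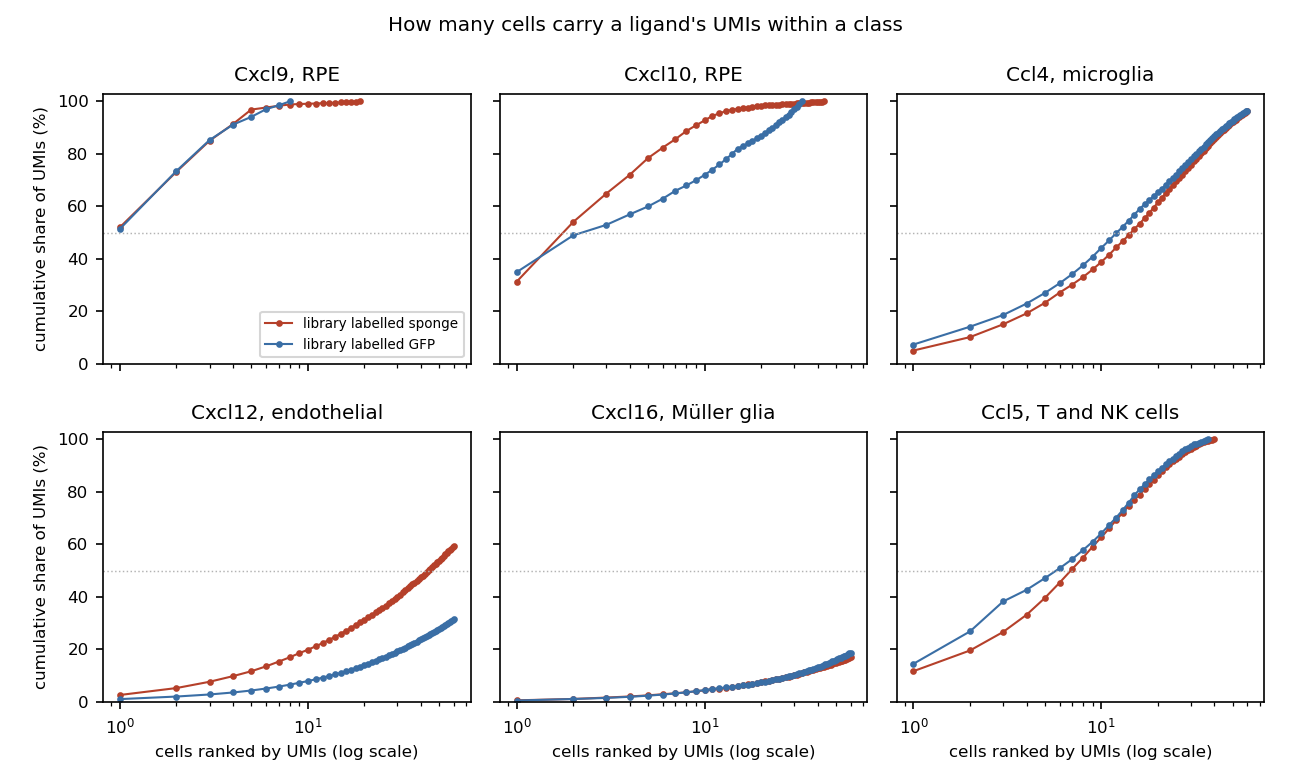
Cumulative share of a ligand's UMIs (vertical axis, percent) over the cells of a class ranked by their UMIs (horizontal axis, log scale, up to 60 cells), for 6 ligand and class pairs in the library labelled sponge and the library labelled GFP. The dotted line marks 50%. The Cxcl9 curves of RPE pass it at the first cell in both libraries, whereas Cxcl12 in endothelial cells reaches it after 44 cells in the library labelled sponge and beyond the drawn range in the library labelled GFP.

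Outside the RPE, and among the named classes only, Cxcl9 was highest in macrophages. They had 373 CPM (337 to 412) in the library labelled sponge, against 99.2 CPM (79.5 to 122) in the library labelled GFP. Microglia had 317 CPM (286 to 349, sponge-labelled) and 72.6 CPM (50.3 to 101, GFP-labelled). These also rested on few cells, 16 macrophages and 24 microglia in the library labelled sponge, and 12 macrophages and 3 microglia in the library labelled GFP. Without the top cell of each library, macrophages had 177 CPM in the library labelled sponge and 67.5 CPM in the library labelled GFP, and microglia 203 CPM (sponge-labelled) and 10.9 CPM (GFP-labelled). The log2 ratios were then 1.38 in place of 1.90 and 4.08 in place of 2.11. With coarser clustering the macrophage ratio was 0.53, and with chemokine genes used in the clustering it was 0.57. Macrophages split into 2 clusters. In the one led by Cd209g, Folr2, F13a1 and Mrc1 (85 cells sponge-labelled and 110 cells GFP-labelled) Cxcl9 stood at 440 CPM (sponge-labelled) and 9.80 CPM (GFP-labelled), with 207 of 332 UMIs of the library labelled sponge in 1 cell. In the other, led by Dcstamp, Mmp12 and Il12b (46 cells sponge-labelled and 221 cells GFP-labelled), Cxcl9 stood at 193 CPM (sponge-labelled) and 147 CPM (GFP-labelled) with overlapping intervals. Fibroblasts had 21.3 CPM (sponge-labelled) and 22.8 CPM (GFP-labelled). Pericytes and smooth muscle had 0 UMIs in the library labelled sponge and 27 UMIs in the library labelled GFP, at least 5.79-fold lower against a floor of 3 counts in the library. Of the 27 UMIs 13 were in 1 cell, and without it 14 remained, at least 3.01-fold against the same floor and under the minimum of 20 for a call.

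Cxcl10 was also found in Müller glia, which span the retina and support its neurons, and in fibroblasts. Müller glia had 84.5 CPM (80.4 to 88.6) in the library labelled sponge, against 34.6 CPM (31.2 to 38.3) in the library labelled GFP, a log2 ratio of 1.28 (1.12 to 1.45). Most came from 1 of the 3 Müller clusters, led by Inhba, Btg2, Fos and Lcn2 (965 cells sponge-labelled and 1028 cells GFP-labelled), with 155 CPM (148 to 163) in the library labelled sponge, against 87.6 CPM (78.4 to 97.4) in the library labelled GFP. Of the other clusters, one had 11.4 CPM in 166 cells (sponge-labelled) and 6.29 CPM in 2367 cells (GFP-labelled), and the other had 4.31 CPM in 1049 cells (sponge-labelled) and 2.36 CPM in 351 cells (GFP-labelled). None of the 3 clusters reached 2-fold alone. The cluster led by Inhba was 965 of 2180 Müller cells (sponge-labelled) and 1028 of 3746 (GFP-labelled), so the class ratio also holds this difference in make-up. Fibroblasts had 214 CPM (201 to 227, sponge-labelled) and 125 CPM (117 to 133, GFP-labelled), but their 2 clusters differed in direction. The one with more cells over both libraries (304 cells sponge-labelled and 2257 cells GFP-labelled) had 343 CPM (319 to 369, sponge-labelled) and 116 CPM (108 to 125, GFP-labelled), and the other (310 cells sponge-labelled and 397 cells GFP-labelled) had 111 CPM (99.1 to 125, sponge-labelled) and 167 CPM (145 to 192, GFP-labelled). B and plasma cell markers in fibroblasts summed to 3325 CPM (sponge-labelled) and 20.98 CPM (GFP-labelled). In the first cluster 15982 of 16035 such UMIs of the library labelled sponge lay in 1 cell, mostly from Igkc, an immunoglobulin gene. In the cells of that cluster with no such UMI, a set chosen after seeing the data, Cxcl10 had 399 CPM (369 to 430, sponge-labelled) and 114 CPM (105 to 123, GFP-labelled). Ocular surface epithelium had 6.11 CPM (4.84 to 7.61) in the library labelled sponge, against 17.2 CPM (14.3 to 20.4) in the library labelled GFP. For pericytes and smooth muscle the ratio of 1.16 became -0.17 without the top cell of each library.

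Cxcl12 (ENSMUSG00000061353, chromosome 6, 117168535 to 117181367, plus strand, 4 exons), the ligand of Cxcr4 that retains and guides stem and immune cells, was a vessel product. Endothelial cells had 900.3 CPM (869 to 932) in the library labelled sponge, against 893 CPM (862 to 925) in the library labelled GFP. The log2 ratio of 0.01 had an interval from -0.06 to 0.08, while the endothelial marker list stood 2.02-fold higher. The signal was broad, seen in 67.3% of endothelial cells in the library labelled sponge and 59.0% in the library labelled GFP. Fibroblasts had 212 CPM (199 to 225, sponge-labelled) and 150.2 CPM (141 to 159, GFP-labelled). Bipolar cells had 3.61 CPM (sponge-labelled) and 18.9 CPM (GFP-labelled), RPE 6.28 CPM (sponge-labelled) and 22.9 CPM (GFP-labelled), and melanocytes 10.2 CPM (sponge-labelled) and 30.5 CPM (GFP-labelled), while rods had 7.05 CPM (sponge-labelled) and 15.3 CPM (GFP-labelled).

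Cxcl16 (ENSMUSG00000018920, chromosome 11, 70453983 to 70459984, minus strand, 5 exons), a membrane-held ligand of Cxcr6 that also takes up oxidised lipoprotein, stood above rods in 6 classes (sponge-labelled) and 5 classes (GFP-labelled). It overlaps Zmynd15 on the opposite strand. Macrophages had 434 CPM (394 to 476) in the library labelled sponge, against 276 CPM (242 to 313) in the library labelled GFP. Microglia had 199.6 CPM (176 to 226, sponge-labelled) and 98.2 CPM (71.9 to 131.0, GFP-labelled), a 2.01-fold ratio whose log2 was 0.17 with cells thinned to 1000 UMIs. Müller glia had 97.9 CPM (93.5 to 102, sponge-labelled) and 65.2 CPM (60.5 to 70.2, GFP-labelled), and all 3 Müller clusters carried it, at 83.5, 107 and 88.0 CPM in the library labelled sponge and 57.0, 78.7 and 61.4 CPM in the library labelled GFP. The UMIs were spread over many cells: 1058 of 2180 Müller cells had one in the library labelled sponge and 612 of 3746 in the library labelled GFP. RPE had 30.4 CPM (26.5 to 34.8, sponge-labelled) and 13.7 CPM (11.2 to 16.6, GFP-labelled), a log2 ratio of 1.15 that was 0.997 without the top cells, and ocular surface epithelium 63.0 CPM (sponge-labelled) and 55.6 CPM (GFP-labelled).

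Cx3cl1 (ENSMUSG00000031778, chromosome 8, 94772009 to 94782427, plus strand, 3 exons), known as fractalkine, is tethered to neurons and vessels and signals to microglia through Cx3cr1. Endothelial cells had 54.5 CPM (47.2 to 62.8) in the library labelled sponge, against 36.0 CPM in the library labelled GFP, a log2 ratio of 0.60 (0.27 to 0.93) that was -0.06 with cells thinned to 1000 UMIs. Bipolar cells, the neurons that relay photoreceptor signals, had 26.0 CPM (23.5 to 28.7, sponge-labelled) and 16.0 CPM (13.8 to 18.4, GFP-labelled), and fibroblasts had 30.8 CPM (sponge-labelled) and 16.1 CPM (GFP-labelled). Most bipolar cells lay in different clusters in the libraries: 1 cluster held 1339 (sponge-labelled) and 517 (GFP-labelled) of them, and another 507 (sponge-labelled) and 2437 (GFP-labelled). Rods had 9.36 CPM (sponge-labelled) and 10.9 CPM (GFP-labelled), with overlapping intervals. None of the classes above rods reached 2-fold for Cx3cl1. Of all Cx3cl1 UMIs, endothelial cells held 9.99% (sponge-labelled) and 8.47% (GFP-labelled), and bipolar cells 20.2% (sponge-labelled) and 12.8% (GFP-labelled). Unnamed cells outside the immune clusters held 35.9% (sponge-labelled) and 42.5% (GFP-labelled), so much of its source lay outside the named classes.

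Ccl2 (ENSMUSG00000035385, chromosome 11, 82035571 to 82037453, plus strand, 3 exons), the main attractant of Ccr2-bearing monocytes, came from macrophages, fibroblasts, microglia, pericytes and Müller glia. It overlaps Gm17268 on the opposite strand. Macrophages had 664 CPM (615 to 715) in the library labelled sponge, against 354 CPM (315 to 395) in the library labelled GFP. Fibroblasts had 344 CPM (328 to 361, sponge-labelled) and 127 CPM (119 to 135, GFP-labelled), a log2 ratio of 1.44 (1.32 to 1.56), beside a fibroblast marker list that stood 1.91-fold higher. The fibroblast ratio rested on many cells, 160 of 614 with a UMI in the library labelled sponge and 335 of 2654 in the library labelled GFP, and without the top cells it was 1.40. Both fibroblast clusters shared the direction, with 411 CPM (sponge-labelled) and 131 CPM (GFP-labelled) in the one with more cells and 292 CPM (sponge-labelled) and 108 CPM (GFP-labelled) in the other. In the cells of the first with no B or plasma marker UMI, Ccl2 had 441 CPM (410 to 474, sponge-labelled) and 133 CPM (124 to 143, GFP-labelled). Müller glia had 48.6 CPM (45.5 to 51.8, sponge-labelled) and 46.2 CPM (42.2 to 50.4, GFP-labelled), again from the cluster led by Inhba and Lcn2, at 87.7 CPM (82.1 to 93.6, sponge-labelled) and 117 CPM (106 to 128, GFP-labelled). In that cluster Cxcl10 was thus higher and Ccl2 lower in the library labelled sponge. RPE had 23.9 CPM (20.4 to 27.7, sponge-labelled) and 10.6 CPM (8.39 to 13.2, GFP-labelled), and 1 cell held 25.1% of these UMIs in the library labelled sponge and 15.2% in the library labelled GFP. Without these cells the log2 ratio was 0.987 in place of 1.17. The RPE level in the library labelled GFP did not stand above rods.

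Ccl12 (ENSMUSG00000035352, chromosome 11, 82101845 to 82103400, plus strand, 3 exons), a Ccr2 ligand of mice that lies near Ccl2, was a macrophage and microglia product. Macrophages had 382 CPM (345 to 421) in the library labelled sponge, against 405 CPM (364 to 449) in the library labelled GFP, with overlapping intervals. Microglia had 215 CPM (191 to 242, sponge-labelled) and 386 CPM (332 to 447, GFP-labelled), a log2 ratio of -0.85 (-1.12 to -0.57). It was at least 2-fold lower in 7 of the 10 classes where it was measured, against 9.77% of all measured gene and class pairs. Rods were among the 7, with 1.90 CPM (sponge-labelled) and 6.31 CPM (GFP-labelled), and none of these 7 stood above rods. Microglia were thus lower for Ccl12 while their myeloid markers summed to 22510 CPM in the library labelled sponge and 12554 CPM in the library labelled GFP.

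Ccl3 (ENSMUSG00000000982, chromosome 11, 83647844 to 83649355, minus strand, 3 exons) and Ccl4 (ENSMUSG00000018930, chromosome 11, 83662584 to 83664683, plus strand, 3 exons) are neighbouring genes, and Ccl3 binds Ccr1. Microglia had 1417 CPM of Ccl3 (1353 to 1484) in the library labelled sponge, against 939 CPM (854 to 1031) in the library labelled GFP. They had 2691 CPM of Ccl4 (2602 to 2783, sponge-labelled) and 2013 CPM (1887 to 2146, GFP-labelled). Macrophages had 717 CPM of Ccl3 (sponge-labelled) and 618 CPM (GFP-labelled) and 1235 CPM of Ccl4 (sponge-labelled) and 1337 CPM (GFP-labelled). Both genes were often found in the same cells: 76.0% of microglia with Ccl3 also had Ccl4 in the library labelled sponge and 80.6% in the library labelled GFP, against 10.7% (sponge-labelled) and 30.8% (GFP-labelled) of the other microglia. The cells with Ccl3 were deeper, at medians of 9444.5 UMIs against 1998.5 UMIs in the library labelled sponge and 3104 UMIs against 2432.5 UMIs in the library labelled GFP. With cells weighted equally, the microglial ratio was 0.23 for Ccl3 in place of 0.59 and 0.07 for Ccl4 in place of 0.42. T and NK cells had 259 CPM of Ccl4 (214 to 311, sponge-labelled) and 44.3 CPM (21.3 to 81.5, GFP-labelled), from 117 UMIs in 19 cells of the library labelled sponge and 10 UMIs in 5 cells of the library labelled GFP. For Ccl3 they had 35 UMIs (sponge-labelled) and 2 UMIs (GFP-labelled), a log2 ratio of 2.83 that was 0.52 with classes set by marker score.

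Ccl5 (ENSMUSG00000035042, chromosome 11, 83525778 to 83530518, minus strand, 3 exons), a ligand stored by cytotoxic lymphocytes, was led by T and NK cells, with 1320.4 CPM (1217 to 1431) in the library labelled sponge, against 1400.4 CPM (1250.2 to 1564) in the library labelled GFP. The intervals overlapped, while the T and NK marker list stood 2.18-fold higher. In microglia Ccl5 had 248 CPM (222 to 277, sponge-labelled) and 27.8 CPM (14.8 to 47.5, GFP-labelled), a log2 ratio of 3.11 (2.37 to 4.09). Of the T and NK markers, 10 of 13 were at 0 in microglia of the library labelled sponge, and the list summed to 15.7 CPM there and to 32.0 CPM in the library labelled GFP. The UMIs lay in 26 of 184 cells in the library labelled sponge and 4 of 150 in the library labelled GFP, and 1 cell held 46.5% of the UMIs in the library labelled sponge and 69.2% in the library labelled GFP. Without these cells microglia had 135 CPM (sponge-labelled) and 8.72 CPM (GFP-labelled). With unnamed immune clusters assigned to their best markers, the microglial ratio was 0.54 in place of 3.11. Among the 24 microglia with Cxcl9 in the library labelled sponge, 13 also had Ccl5 (54.2%), against 8.13% of the others. The median depths were 12525.5 UMIs with Cxcl9 and 5098.5 UMIs without, and the part of depth was not tested. RPE had 9.91 CPM of Ccl5 (7.74 to 12.5, sponge-labelled) and 2.55 CPM (1.53 to 3.98, GFP-labelled), the latter not above rods.

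Counted over all ligands and classes, 109 pairs were measured, with at least 20 UMIs over both libraries. Of these, 17 were at least 2-fold higher in the library labelled sponge (15.6%), against 4.15% of all measured gene and class pairs, and 26 were at least 2-fold lower (23.9%), against 9.77%. Among the 50 pairs above rods in at least 1 library, 16 were higher (32%) and 6 lower (12%). A pair could pass this rule only through the library where it was high, so the rule and the ratio are not independent. No share of all genes under the same rule stands beside these counts. The 59 pairs not above rods had 1 higher (1.69%) and 20 lower (33.9%), so most lower pairs lay at the level of the free RNA gauge. Without the top cell of each library, 14 of the 17 and 24 of the 26 were still called, and the other lower ones, Cxcl9 in pericytes and smooth muscle and Ccl12 in endothelial cells, fell under the minimum of 20 UMIs. In RPE 5 of 10 ligands were higher, against 2.34% of all its genes, and 4 lower, against 15% of them. Of these 5, only Cxcl9 stood above rods in RPE of the library labelled GFP, while Cxcl10, Cxcl16, Ccl2 and Ccl5 did not. Without the top cells Cxcl16 and Ccl2 were no longer among the higher ones. Microglia had 4 of 8 higher, Cxcl9, Cxcl16, Ccl2 and Ccl5, against 7.12%, and 0 lower, against 9.22%. Macrophages had 2 of 8 higher, against 7.16%, and 0 lower, against 12.6%. T and NK cells had 2 of 3 higher, against 11.5%, and 0 lower, against 5.31%. Pericytes and smooth muscle had 2 of 7 higher, against 6.28%, and 1 lower, against 4.91%. Endothelial cells had 0 of 8 higher, against 4.88%, and 1 lower, against 5.72%. Müller glia had 1 of 10 higher, against 2.65%, and 3 lower, against 8.78%. Fibroblasts had 1 of 10 higher, against 6.3%, and 1 lower, against 9.77%. Ocular surface epithelium had 0 of 10 higher, against 3.7%, and 6 lower, against 23.5%, and melanocytes 0 of 10 higher, against 3.26%, and 4 lower, against 10.9%. Among neurons, rods had 0 of 10 higher, against 1.72%, and 2 lower, against 3.97%. Cones had 0 of 5 higher, against 3.55%, and 1 lower, against 4.38%. Bipolar cells had 0 of 10 higher, against 1.19%, and 3 lower, against 8.22%. Of the 50 pairs above rods in at least 1 library, 19 had a larger ratio than the summed markers of their class. No share of all genes stands beside this count either, and it rests on the same rule. Over all measured genes the median log2 ratio was -0.19 in RPE, -0.37 in ocular surface epithelium, -0.11 in melanocytes and 0.13 in T and NK cells. Depth differed too, with median UMIs per cell of 8740.5 (sponge-labelled) and 2618.5 (GFP-labelled) in Müller glia, 6135.5 (sponge-labelled) and 2889.5 (GFP-labelled) in microglia, and 23358 (sponge-labelled) and 5788.5 (GFP-labelled) in ocular surface epithelium. The part of depth, cell quality and free RNA in these ratios was not tested.

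The libraries filled the 3 microglial clusters unequally. The cluster led by Nav3 and P2ry12 had 86 cells (sponge-labelled) and 119 cells (GFP-labelled), that led by Fabp5 and Spp1 had 28 cells (sponge-labelled) and 25 cells (GFP-labelled), and that led by Cst7 and Ctsd had 70 cells (sponge-labelled) and 6 cells (GFP-labelled). In the first, Ccl2 stood at 306 CPM (sponge-labelled) and 91.9 CPM (GFP-labelled), whereas in the cluster led by Fabp5 it stood at 182 CPM (sponge-labelled) and 178 CPM (GFP-labelled). Cxcl16 stood at 204 CPM (sponge-labelled) and 88.9 CPM (GFP-labelled) in the first and at 241 CPM (sponge-labelled) and 130 CPM (GFP-labelled) in the cluster led by Fabp5. Cxcl9 stood at 170 CPM (sponge-labelled) and 2.96 CPM (GFP-labelled) in the first, where 1 cell held 74 of the 120 UMIs of the library labelled sponge. In the cluster led by Fabp5 it stood at 651 CPM (sponge-labelled) and 267 CPM (GFP-labelled), with 147 of 275 UMIs (sponge-labelled) in 1 cell. With coarser clustering 38.0% of the microglia kept their class.

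**Figure D4:**
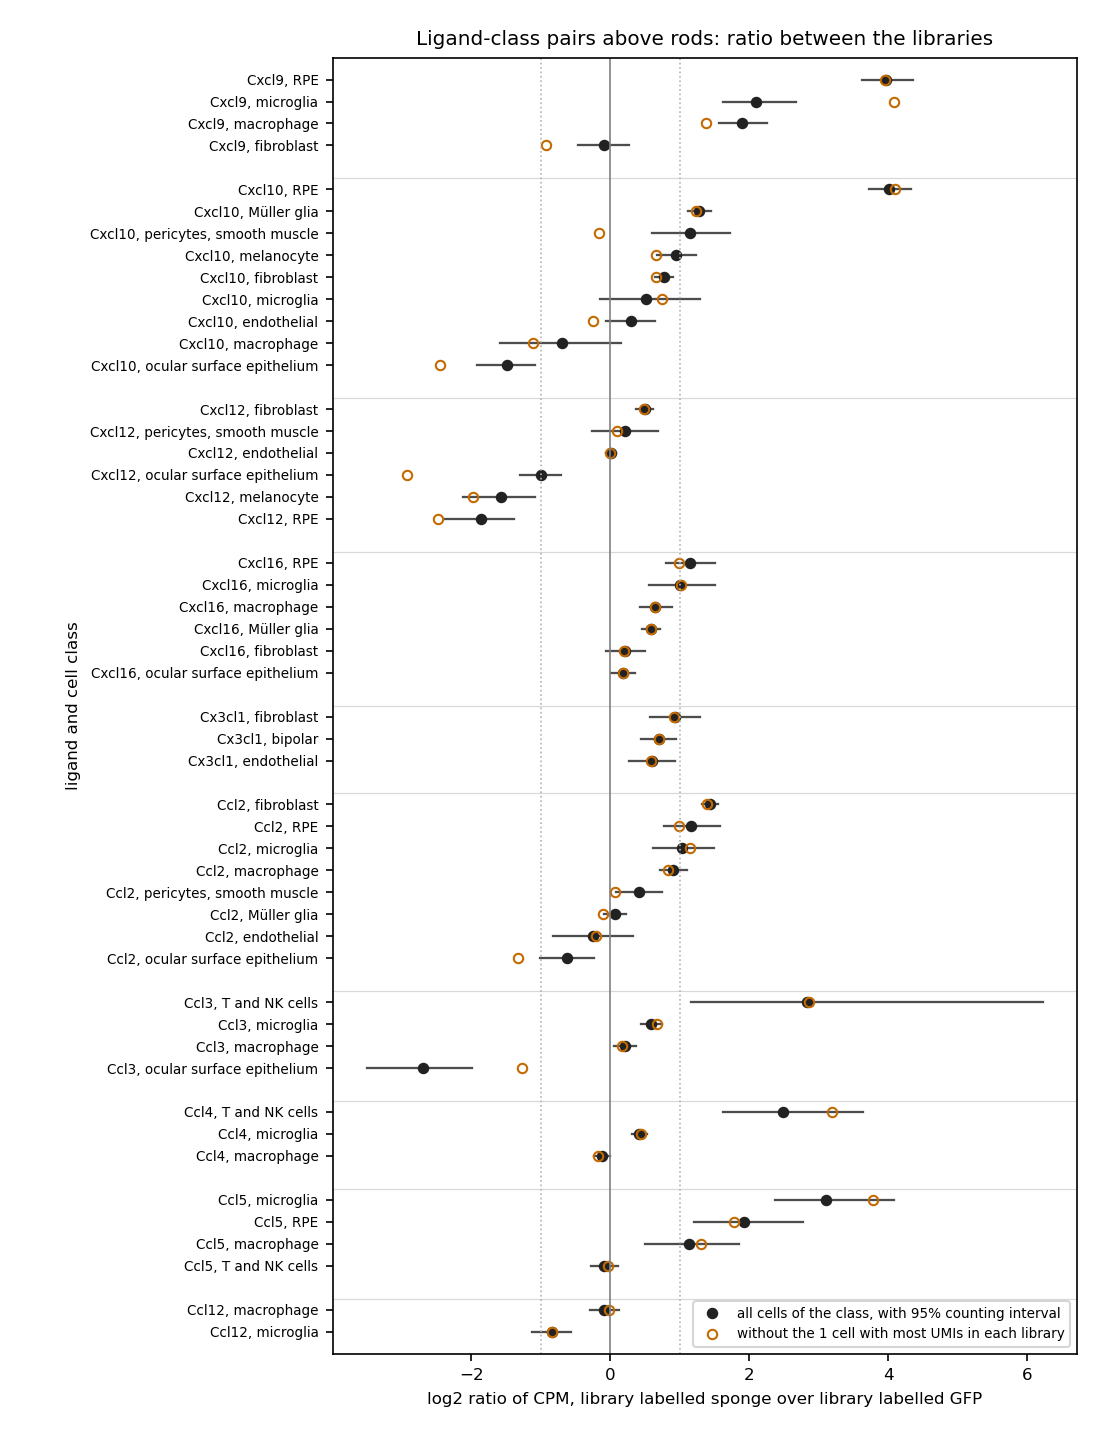
Log2 ratio of CPM, library labelled sponge over library labelled GFP (horizontal axis), for the 49 ligand and class pairs that were above rods in a library and had a UMI in both (vertical axis). Filled points use all cells, with bars for the 95% counting interval, open points leave out the 1 cell with most UMIs in each library, and dotted lines mark 2-fold. Points run from -2.69 for Ccl3 in ocular surface epithelium to 4.02 for Cxcl10 in RPE.

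The receptors of these ligands were read in the same classes. Cxcr3, the receptor of Cxcl9 and Cxcl10, was a T and NK transcript, with 33.2 CPM (18.6 to 54.8) in the library labelled sponge, against 13.3 CPM (2.74 to 38.9) in the library labelled GFP, from 15 UMIs (sponge-labelled) and 3 UMIs (GFP-labelled). In those cells Cxcr6, the receptor of Cxcl16, had 459 CPM (398 to 526, sponge-labelled), against 186 CPM (134 to 252, GFP-labelled), a log2 ratio of 1.29 beside 1.13 for the T and NK marker list. Cx3cr1, the receptor of Cx3cl1, stood at 1193 CPM (sponge-labelled) and 1009.9 CPM (GFP-labelled) in microglia. Ackr3, which removes Cxcl12, was highest in pericytes and smooth muscle, at 109.7 CPM (91.9 to 130.0, sponge-labelled) and 32.1 CPM (24.6 to 41.3, GFP-labelled). Cxcr4 stood at 81.1 CPM (sponge-labelled) and 51.3 CPM (GFP-labelled) in macrophages. Macrophages had 114 CPM of Ccr1 (sponge-labelled) and 83.3 CPM (GFP-labelled). Ccr2 stood at 49.3 CPM (sponge-labelled) and 14.8 CPM (GFP-labelled) in macrophages and at 79.8 CPM (sponge-labelled) and 124 CPM (GFP-labelled) in T and NK cells. Ackr1 was highest in cones, with 74.0 CPM (sponge-labelled) and 46.6 CPM (GFP-labelled), and Ackr2 had at most 7 UMIs in a class.

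Genes of the signals that induce these ligands were counted over a list of 29. In RPE 3 of 25 measured members were at least 2-fold higher, against 2.34% of all its genes, and 2 lower, against 15%, with a list median of 0.31 beside -0.19 for all genes. Irf8, an interferon regulatory factor, stood at 34.2 CPM (sponge-labelled) and 4.42 CPM (GFP-labelled), and Irf1, of the same family, at 66.6 CPM (sponge-labelled) and 27.3 CPM (GFP-labelled). In Müller glia 5 of 26 were higher, against 2.65%, and 0 lower, against 8.78%, with Irf1 at 271 CPM (sponge-labelled) and 114 CPM (GFP-labelled). In microglia 11 of 24 were higher, against 7.12%, and 0 lower, against 9.22%, with Tnf at 263 CPM (sponge-labelled) and 113 CPM (GFP-labelled), and in macrophages 8 of 23 were higher, against 7.16%, and 0 lower, against 12.6%. Ifng, the gene of interferon gamma, stood at 168 CPM (133 to 211, sponge-labelled) and 39.9 CPM (18.2 to 75.7, GFP-labelled) in T and NK cells, from 76 UMIs (sponge-labelled) and 9 UMIs (GFP-labelled).

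Of a list of 28 other chemokine ligands, 13 were measured in RPE, where 1 was at least 2-fold higher, against 2.34% of all its genes, and 8 were lower, against 15%. There Cxcl1, which attracts neutrophils, stood at 11.4 CPM (sponge-labelled) and 23.2 CPM (GFP-labelled), Cxcl2 at 2.37 CPM (sponge-labelled) and 16.4 CPM (GFP-labelled), and Ccl7 had 1 UMI (sponge-labelled) and 65 UMIs (GFP-labelled). Lower members were not particular to RPE. Rods had 7 of 14 lower, against 3.97%, and 1 higher, against 1.72%, with Cxcl2 at 4.54 CPM (sponge-labelled) and 10.9 CPM (GFP-labelled). Bipolar cells had 8 of 15 lower, against 8.22%, and 0 higher, against 1.19%. Ocular surface epithelium had 10 of 14 lower, against 23.5%, and 0 higher, against 3.7%. In microglia 2 of 8 were higher, against 7.12%, and 0 lower, against 9.22%, the higher ones being Ccl8 at 624 CPM (581 to 669, sponge-labelled) and 61.9 CPM (41.5 to 88.9, GFP-labelled) and Cxcl13, which attracts B cells, at 183 CPM (160.3 to 208, sponge-labelled) and 8.54 CPM (2.33 to 21.9, GFP-labelled). The same pair was higher in macrophages, 2 of 11, against 7.16%, with Ccl8 at 1217 CPM (sponge-labelled) and 375 CPM (GFP-labelled). Of 13 genes of shedding, cleavage and surface display, 5 of 11 measured in fibroblasts were higher, against 6.3%, and 0 lower, against 9.77%, among them the heparan sulfate carrier Sdc4 at 402 CPM (sponge-labelled) and 189 CPM (GFP-labelled) and the protease Mmp14 at 144 CPM (sponge-labelled) and 67.8 CPM (GFP-labelled). In RPE 0 of 10 were higher, against 2.34%, and 1 was lower, against 15%. In Müller glia 0 of 11 were higher and 3 lower, against 8.78%, in ocular surface epithelium 0 of 10 were higher and 3 lower, against 23.5%, and in melanocytes 0 of 9 were higher and 2 lower, against 10.9%. Of 23 receptors, 1 of 8 measured in RPE was higher, against 2.34%, Ackr3 at 47.6 CPM (sponge-labelled) and 20.8 CPM (GFP-labelled), and 4 were lower, against 15%.

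Likeness of pattern was read as Pearson's r of log levels over the 26 sums of class and library, among 17920 genes, as a description, since the sums share libraries and depth. Ccl3 and Ccl4 were each other's nearest gene (r 0.99), followed by Plek and Cd86. The nearest genes were Wfdc17 for Ccl12 (0.99), Itgal for Ccl5 (0.95), Erg for Cxcl12 (0.93), Axl for Ccl2 (0.92) and Folr2 for Cxcl16 (0.91). Cxcl9 was nearest to Kcnk13 (0.86), Cxcl10 to the interferon-induced GTPase gene Iigp1 (0.85) and Cx3cl1 to Plcb1 (0.81). Between Cxcl9 and Cxcl10 themselves r was 0.40.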

How the data were processed

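Per the labels and the submitters' processing notes, the authors made 10x Genomics 3' v3.1 libraries and counted them with Cell Ranger 7.0.0 on mm10; the deposited matrices hold UMI counts per gene and barcode, not normalized. Intron handling and cell calling are not given in the sources used here. Kept barcodes had a minimum of 300 genes and 500 UMIs and no more than 25% mitochondrial UMIs, which removed 67 in the library labelled sponge and 176 in the library labelled GFP. Scrublet marked 0 doublets in either library, so it did not work here and none were removed.

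Cells were clustered together with scanpy 1.11.5 and leidenalg 0.10.2 (2000 variable genes, 30 components, 15 neighbours, resolution 2), leaving out 221 chemokine, interferon, MHC and eGFP genes. Immune clusters were clustered again. A cluster was named where its markers averaged at least 1.5 (log2) over the median cluster, at least 3 were 2-fold up and no unrelated class reached 0.4 of that score. Clusters led by haemoglobin genes stayed unnamed. So did those whose 10 leading genes held more markers of an unrelated class, or none of their own beside Grem1 or Ptx3. The cluster led by Grem1, Ptx3 and Crhbp, which scored best for melanocyte markers, stayed unnamed by its leading genes. These rules were set after seeing the clusters. For each class in each library the UMI counts were added up and expressed as CPM, with 0.5 added to both counts for ratios. Intervals are 95% exact Poisson, binomial or Clopper-Pearson. The ratio step was tested on simulated data. Members, lists and markers were chosen with earlier results of these data known. The text names all 10 ligands, their receptors, and list members with at least 50 counts and a 2-fold ratio in a class, at most 4 per list and class. Some genes that this rule names are not reported here.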

Additional observations from a re-analysis of the deposited data

Results flagged for a closer look

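Cxcl9 differed in opposite directions between classes. Its log2 ratio, library labelled sponge over library labelled GFP, was 3.98 in RPE, while in pericytes and smooth muscle it was at least 5.79-fold lower in the library labelled sponge against a floor of 3 counts, and at least 3.01-fold without 1 cell that held 13 of the 27 UMIs of the library labelled GFP. Cxcl10 had a log2 ratio of 4.02 in RPE and -1.49 in ocular surface epithelium. Ccl3 had a log2 ratio of 2.83 in T and NK cells, from 35 UMIs (sponge-labelled) and 2 UMIs (GFP-labelled), and -2.69 in ocular surface epithelium, from 20 UMIs (sponge-labelled) and 77 UMIs (GFP-labelled), with 51 of these 77 in 1 cell. These differences between classes were not tested, since each group is 1 library.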

How the results depend on the processing

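No paired analysis was possible because each group is 1 library and cells are not assigned to mice. Of 109 ligand and class pairs, 17 were at least 2-fold higher, against 4.15% of all measured gene and class pairs, and 26 lower, against 9.77%. The stricter filter on cells gave 17 lower, and cells thinned to 1000 UMIs, which leaves fewer pairs measured (71), gave 11 higher and 14 lower. No share of all genes under these settings stands beside these counts, so they cannot be read against all genes. Of 52 named ratios 7 turned sign, 4 of them under 2-fold, among these Cx3cl1 in endothelial cells (-0.06 thinned). Those past 2-fold were Ccl2 in bipolar cells at resolution 1 (0.74), Ccl4 in melanocytes by marker score (0.99), and Cxcl10 in pericytes and smooth muscle by marker score (-0.0661), thinned (-1.03), with cells weighted equally (-0.11) and without the cell with most UMIs (-0.17); the cause was not tested. Of the other named ratios under the alternatives, 498 values stayed within the counting interval and 76 moved by more. Past 2-fold in every setting that gave a value were 6 of the 17 higher and 15 of the 26 lower pairs, among them Cxcl9 in RPE (2.97 to 4.17) and Cxcl10 in RPE (3.03 to 4.49), while Cxcl16 in microglia was past it in 5 of 11 and Ccl2 in microglia in 6 of 11. Leaving out the top cells and assigning unnamed immune clusters were chosen after seeing the data.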

Other observations

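Some groups outside the compared classes also carried ligands. An unnamed immune cluster led by Gm7967, Lcn2 and Rgs6 had 12 cells (sponge-labelled) and 138 cells (GFP-labelled). Its Cxcl9 stood at 546 CPM (sponge-labelled) and 24.3 CPM (GFP-labelled). Another, led by Dcn, Igfbp5 and Mgp, had 6 cells (sponge-labelled) and 87 cells (GFP-labelled). Its Cxcl9 stood at 9.81 CPM (sponge-labelled) and 189 CPM (GFP-labelled), and its Ccl12 at 903 CPM (sponge-labelled) and 176 CPM (GFP-labelled). Mast cells, 2 in the library labelled sponge and 9 in the library labelled GFP, had 14 (sponge-labelled) and 3 (GFP-labelled) Ccl2 UMIs. An unnamed cluster led by Grem1, Ptx3 and Crhbp (725 cells sponge-labelled and 1128 cells GFP-labelled) had 131 CPM of Ccl2 (125 to 139) in the library labelled sponge and 71.5 CPM (64.5 to 79.1) in the library labelled GFP. For Cxcl10 the same cluster stood at 31.2 CPM (27.9 to 34.7, sponge-labelled) and 51.3 CPM (45.4 to 57.8, GFP-labelled).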
